A study of Macaca mulatta with 10 samples.

Results

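The comparison described here set colonies of the rhesus macaque embryonic stem (ES) cell line ORMES6 at the second stage of in vitro differentiation (IVDS2) against the undifferentiated ES cells they came from, on Affymetrix rhesus macaque arrays. Its members were chosen by their sample titles: 2 IVDS2 arrays and 2 ES arrays, 4 of the 10 arrays of the series. The other 6 arrays, 2 to a group, hold the colony centres dissected at that stage (IVDS2-C), the colony rim (IVDS2-P) and cells at the third stage (IVDS3), and they entered only the estimate of spread and values given for orientation. The labels name no dissection for the IVDS2 arrays, so these are taken as undivided colonies, though the labels do not say so. For some genes named below, such as QPCT and CCKBR, the IVDS2 arrays lay outside the values of both the centre and the rim. All 5 groups share the line ORMES6. The ES cells grew on mouse embryonic fibroblast (MEF) feeders in serum replacement medium with basic FGF. The differentiated groups had been grown together with hESdF, human cells that resemble fibroblasts and derive from ES cells, to obtain hepatic foci. The labels do not say whether the 2 arrays of a group came from separate cultures, so p-values measure only the spread between these samples, which may be technical.

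ES cells can give rise to all tissues of the embryo and are held in that state by a small set of transcription factors, POU5F1, SOX2 and NANOG among them. When they leave it, WNT, Nodal, BMP, FGF, Notch and Hedgehog signals and contact between cells sort them into lineages. Liver cells descend from definitive endoderm, which forms through the primitive streak, whereas amnion and surface ectoderm form along routes that use BMP signals and transcription factors of the AP-2, GATA, DLX and MSX families.

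The values are read as log2 expression, centred on each probe set's median over the 10 arrays. Both the log base and the centring are inferred from the deposited values and not stated in the labels. A value of 0 is therefore the middle of the 10 arrays and not absence, no absolute level can be read, and where the IVDS2 arrays were themselves the middle arrays of a gene their values mirror each other around 0. A gene's value is the mean of its probe sets. Differences are IVDS2 minus ES in log2 units, given with the standard error (SE) of 1 limma fit over the 10 arrays, and a gene "rose" or "fell" where its Benjamini-Hochberg adjusted p over the 13191 genes was under 0.05. A call is named stable where it was also made whichever of the 10 arrays was left out. Leaving out either array of IVDS2-C, IVDS2-P or IVDS3 leaves 1 array in that group. Both choices then give the same fit, which changes the spread but not the difference. The number of arrays limits the precision of each value. In such bulk samples a smaller share of cells of 1 type and less RNA per cell cannot be told apart. Feeder cells of the mouse and co-cultured cells of the human may add signal where their transcripts match macaque probes. Their part in the results was not tested.

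Of the 13191 genes, 858 rose (6.5%) and 822 fell (6.23%), 12.7% in all, beside a median difference of -0.04. Stable calls numbered 346 upward (2.62%) and 261 downward (1.98%). At least a 2-fold difference was reached by 387 of the genes that rose and 258 of those that fell, and at least 4-fold by 110 and 46. The number of calls depended on which arrays entered the fit. It was smaller without either IVDS2 array or ES replicate 2, and larger without ES replicate 1. Leaving out such an array changes both the mean of its group and the estimate of spread, and these were not told apart. The ES arrays differed more from each other than those of any other group, with an SD over probe sets of 0.403 for their difference, against 0.284 for the IVDS2 arrays and 0.245 to 0.293 for the rest. The fit gives all groups the same spread for a gene, so the SE of a difference from ES can be too small. Fitting only the 4 arrays compared called 982 genes. Of all 44210 probe sets tested, 3851 were called, 2175 higher and 1676 lower. Of the 21408 probe sets not assigned to a single gene, 1417 were called, 827 higher and 590 lower, a smaller share than over all probe sets. As a check on the labels, POU5F1 stood at 2.98 and 3.30 in the ES arrays and at 0.50 and -0.91 in the IVDS2 arrays. In the IVDS3 arrays it stood at -4.55 and -4.37, so for this gene the IVDS2 colonies lay between the stages before and after. That did not hold for every gene: the IVDS2 arrays of QPCT and CCKBR, described below, lay outside the range of the ES and IVDS3 arrays.

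A set of genes already known to differ in these arrays, among them HAPLN1, NR2F2 and ERP27, was put aside, and the genes named next are the 25 largest rises and 25 largest falls among the remaining stable calls. Every one of them has both IVDS2 arrays on 1 side of both ES arrays, as the rule required. The rises included secreted and cell surface proteins, membrane transporters, regulators of vesicle traffic and the actin cytoskeleton, and a few transcription factors.

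**Figure D1:**
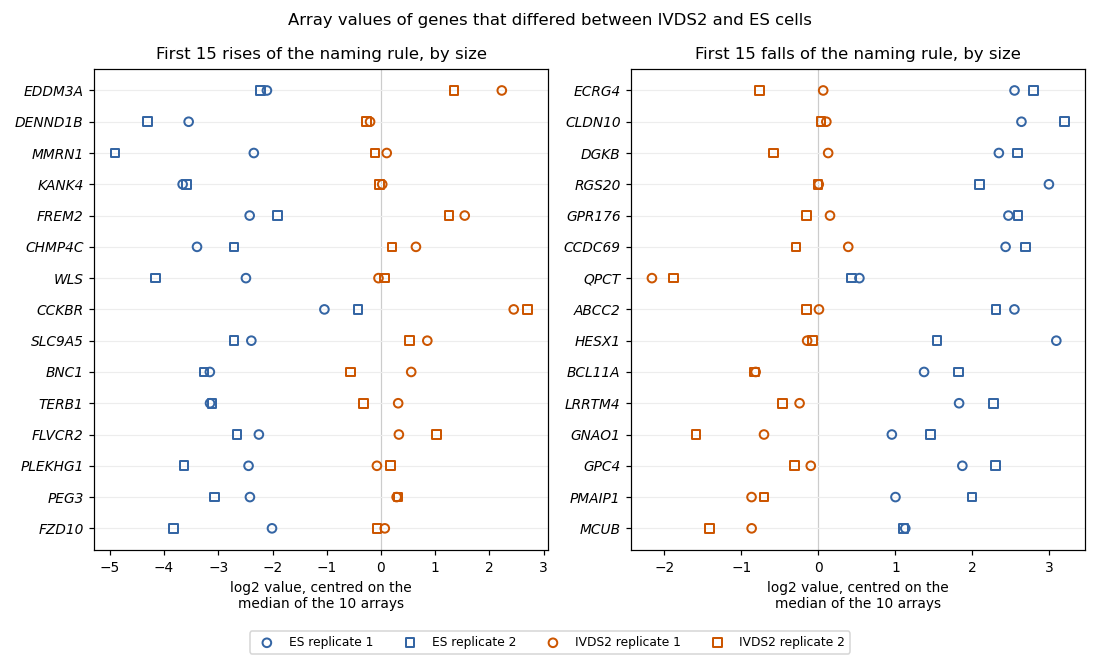
Each symbol is 1 array's centred log2 value (horizontal axis) for the first 15 rises (left) and the first 15 falls (right) of the naming rule, in order of size, with ES arrays in blue and IVDS2 arrays in orange. The IVDS2 arrays of KANK4 sit at 0.02 and -0.02 and its ES arrays at -3.66 and -3.59, whereas the ES arrays of MMRN1 lie far apart, at -2.34 and -4.91.

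Among the secreted and matrix proteins, EDDM3A, an epididymal secretory protein by its name, stood at -2.10 and -2.22 in the ES arrays and at 2.23 and 1.35 in the IVDS2 arrays, a rise of 3.95 ± 0.33 (adjusted p = 0.000294). MMRN1, multimerin of platelets and endothelium, rose by 3.63 ± 0.63, with the wide spread between its ES arrays noted above. FREM2, a large extracellular protein that anchors epithelia to their basement membrane, went from -2.42 and -1.91 to 1.54 and 1.25, a rise of 3.56 ± 0.34 (adjusted p = 0.000446). SOSTDC1, a secreted antagonist of BMP and WNT signals, rose by 2.71 ± 0.33. Its arrays of the central foci lay at 1.88 and 1.92 and those of the periphery at -1.84 and -1.66, so the undivided colonies, at 0.46 and -0.46, stood between the parts. MUC15, a cell surface mucin, rose by 2.65 ± 0.35, although its 2 probe sets gave 1.20 and 4.10.

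Of the 25 rises, CCKBR, WLS and FZD10 are described next, without a test of them as a group. CCKBR, the receptor for gastrin and cholecystokinin, stood at -1.04 and -0.43 in the ES arrays and at 2.45 and 2.70 in the IVDS2 arrays, above all other arrays of the series. WLS, the carrier that brings WNT proteins to the cell surface, stood at -2.49 and -4.15 in ES cells and at -0.05 and 0.07 in the colonies, a rise of 3.33 ± 0.43 (adjusted p = 0.00153). FZD10, a WNT receptor, went from -2.01 and -3.83 to 0.07 and -0.07, a rise of 2.92 ± 0.47 (adjusted p = 0.00445). The ES arrays differed by more than 1 unit for both WLS and FZD10, and the colonies were above the higher ES array in each case.

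Transporters and metabolic proteins that rose were CD36, a receptor and transporter of fatty acids, by 2.87 ± 0.20, SLC9A5, a sodium-proton exchanger, by 3.24 ± 0.26, FLVCR2, a membrane transporter, by 3.13 ± 0.38, and SLC39A8, an importer of zinc and manganese, by 2.69 ± 0.34. The 5 probe sets of SLC39A8 disagreed, with differences from 0.17 to 4.74. LVRN, an aminopeptidase known from placental trophoblast, rose by 2.86 ± 0.36. Proteins of membrane traffic and the cell cortex rose as well. DENND1B, an activator of RAB proteins, rose by 3.69 ± 0.30, CHMP4C, a subunit of the ESCRT-III membrane scission complex, by 3.48 ± 0.26, and MYO5B, the motor that moves recycling endosomes toward the apical membrane, by 2.69 ± 0.27. KANK4, an ankyrin repeat protein linked to the actin cytoskeleton, rose by 3.62 ± 0.28, PLEKHG1 by 3.09 ± 0.40, and ANXA9, an annexin, by 2.86 ± 0.24.

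Among nuclear proteins, BNC1, a zinc finger protein of keratinocytes and germ cells, stood at -3.16 and -3.26 in the ES arrays and at 0.56 and -0.56 in the IVDS2 arrays, a rise of 3.21 ± 0.30 (adjusted p = 0.000415). The imprinted zinc finger gene PEG3 rose by 3.05 ± 0.24 and TERB1, which ties telomeres to the nuclear envelope in meiosis, by 3.13 ± 0.40. The related gene BNC2 did the opposite of BNC1. It stood at 0.90 and 1.04 in the ES arrays and at -1.21 and -1.22 in the colonies, a fall of 2.19 ± 0.18 (adjusted p = 0.000248), and its 4 probe sets gave differences from -2.51 to -1.87. The central foci and the periphery lay far apart for BNC1, at 1.97 and 2.16 against -2.77 and -2.47. For BNC2 they lay close together, at 0.03 and 0.42 against -0.37 and -0.31. The undivided colonies were below both of these parts for BNC2. In limma the adjusted p was 0.00639 for the difference from the centre and 0.058 for that from the periphery. BNC2 was named by the values of the same IVDS2 arrays, so these p-values are no separate support.

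ECRG4, the precursor of the secreted peptide augurin, stood at 2.55 and 2.79 in the ES arrays and at 0.06 and -0.76 in the IVDS2 arrays, a difference of -3.02 ± 0.29 (adjusted p = 0.000438). CLDN10, a claudin of tight junctions, went from 2.64 and 3.20 to 0.10 and 0.03, a difference of -2.85 ± 0.17 (adjusted p = 6.8e-05). ABCC2, the exporter of organic anions known from the bile canaliculi of the liver, went from 2.54 and 2.30 to 0.01 and -0.16, a difference of -2.50 ± 0.16 (adjusted p = 7.82e-05). For these 3 genes every array of the differentiated groups, the IVDS3 arrays included, lay below both ES arrays.

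Other falls among the 25 were as follows. RGS20, a regulator of G protein signalling, differed by -2.54 ± 0.28, GPR176, an orphan receptor, by -2.53 ± 0.27, GNAO1, the alpha subunit of the Go protein of neurons, by -2.35 ± 0.39, and ADORA2B, an adenosine receptor, by -2.18 ± 0.25. For RGS20 and GPR176 the periphery stood above the undivided colonies and the centre below. RGS20 was at 1.83 and 1.33 in the IVDS2-P arrays, close to 0 in both IVDS2 arrays and -1.10 and -1.49 in the IVDS2-C arrays. Genes known from neurons among these falls were LRRTM4, a synaptic adhesion protein, with -2.41 ± 0.29, and DGKB, a diacylglycerol kinase, with -2.69 ± 0.36. UNC79, a subunit of the NALCN sodium leak channel, differed by -2.13 ± 0.12. These genes were named by size and do not stand for neuronal genes as a group. In the neuron and synapse list given below, 1 of 14 measured genes fell, 0 rose and the median was 0.16. Other falls were those of CCDC69 (-2.51 ± 0.26), the cytochrome P450 CYP2S1 (-2.16 ± 0.24), the secreted protein CYTL1 (-2.06 ± 0.31) and ACSL6, which activates long-chain fatty acids (-2.05 ± 0.24). FAM89A differed by -2.11 ± 0.26 as a mean of 2 probe sets that gave -4.34 and 0.13.

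The members of signalling pathways were then followed in gene lists, counted beside the 6.5% of all genes called higher and the 6.23% called lower. Of the 32 measured genes of the WNT list, which does not hold WLS and FZD10, 9 rose and 4 fell, with a median of 0.01, and 3 of the rises and 2 of the falls were stable. AXIN2, a feedback inhibitor that WNT signals switch on in most tissues, stood at -1.48 and -1.91 in the ES arrays and at 0.67 and 0.69 in the IVDS2 arrays, a rise of 2.37 ± 0.21 (adjusted p = 0.000362). The ligand WNT6 went from -2.16 and -2.50 to 0.13 and -0.13, a rise of 2.33 ± 0.31, and the receptor TNFRSF19, a WNT target, rose by 1.50 ± 0.23. Among the WNT genes that fell, FZD5, a receptor, stood at 1.66 and 2.00 in the ES arrays and at 0.04 and -0.66 in the colonies, a difference of -2.14 ± 0.31. The ligand WNT5A, which signals mostly without beta-catenin, went from 0.97 and 0.72 to -0.64 and -0.59, a difference of -1.47 ± 0.13 (adjusted p = 0.000381), with its 3 probe sets between -1.73 and -1.06. So the members of the list did not all move 1 way: the ligands WNT6 and WNT5A moved in opposite directions, while the targets AXIN2 and TNFRSF19 rose.

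The calls of the other WNT genes were lost when particular arrays were left out. The secreted inhibitor DKK1 stood at 0.54 and 2.05 in the IVDS2 arrays against -0.88 and -1.82 in the ES arrays, a rise of 2.64 ± 0.56 (adjusted p = 0.0162, and 0.103 without IVDS2 replicate 2). The ligand WNT4 rose by 1.94 ± 0.41, the R-spondin RSPO2, which strengthens WNT signals, by 1.86 ± 0.42, and the WNT target SP5 by 1.82 ± 0.38, and each lost its call without IVDS2 replicate 2. The R-spondins RSPO1 and RSPO3 differed by 1.24 and 1.06 and did not pass the test (adjusted p = 0.085 and 0.0642). The count of WNT genes that rose was 4 without ES replicate 2 or without IVDS2 replicate 2, and the count that fell was 2 without the latter.

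**Figure D2:**
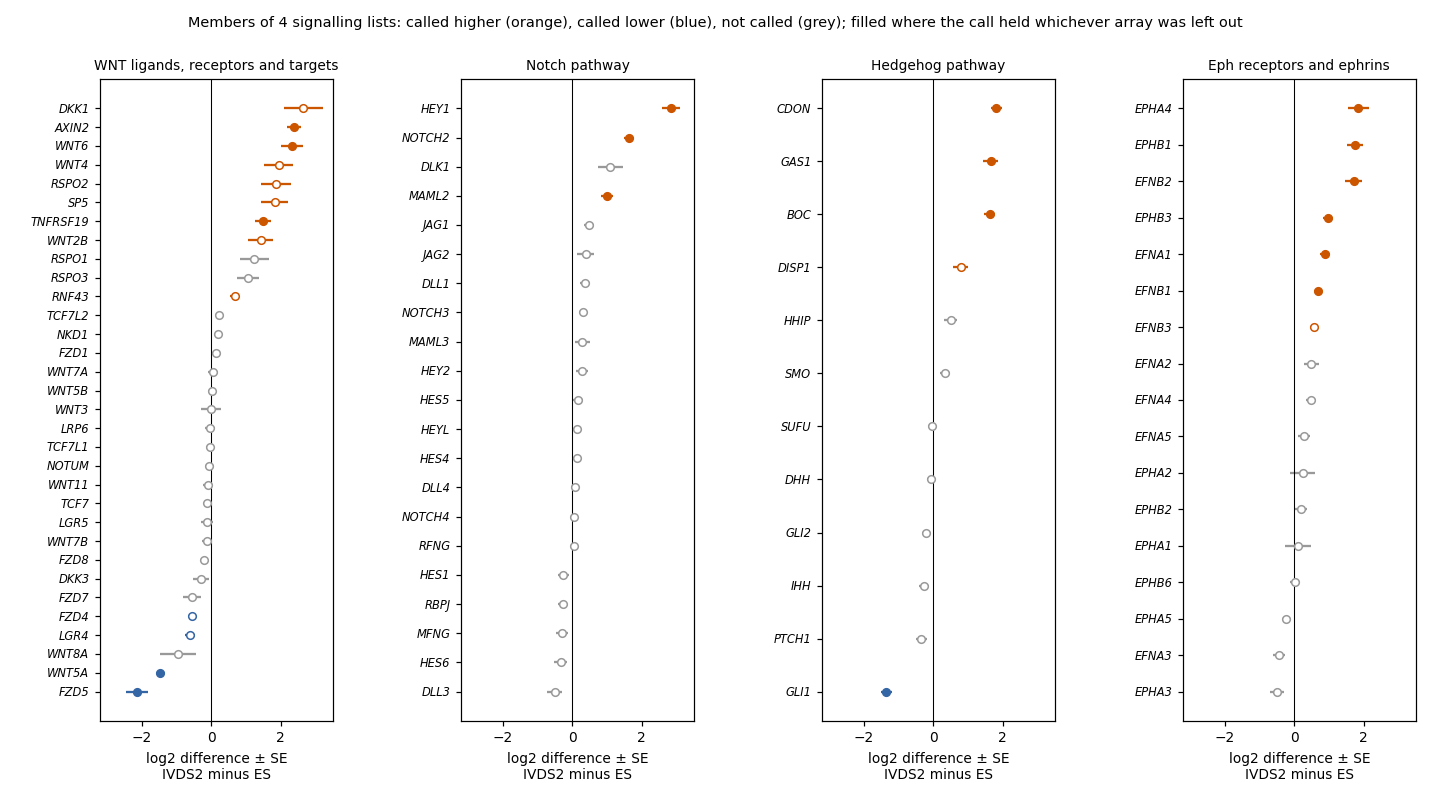
Each point is 1 measured member of the WNT, Notch, Hedgehog and Eph lists, placed at its log2 difference of IVDS2 minus ES with the SE as a bar, and filled where the call was stable. AXIN2, HEY1, CDON and EPHA4 carry filled points to the right of 0 at 2.37, 2.84, 1.81 and 1.85, and FZD5 and GLI1 filled points to the left at -2.14 and -1.34.

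In the Notch list, 3 of 21 measured genes rose, all with stable calls, and 0 fell (1 without ES replicate 1, and 1 at an unadjusted p under 0.05 in limma). The median was 0.17. HEY1, a transcriptional repressor switched on by Notch, stood at -2.68 and -2.99 in the ES arrays and at 0.29 and -0.29 in the colonies, a rise of 2.84 ± 0.26 (adjusted p = 0.000381). The receptor NOTCH2 went from -1.12 and -1.28 to 0.44 in both IVDS2 arrays, a rise of 1.64 ± 0.14, and the coactivator MAML2 rose by 1.01 ± 0.18. None of the ligands passed the test: DLL1 differed by 0.38, JAG1 by 0.49 and DLL3 by -0.51. The targets HES1 and HES5 differed by -0.25 and 0.17 (adjusted p = 0.336 and 0.511), so that among the Notch targets of the list only HEY1 was called.

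Of 12 measured Hedgehog genes 4 rose, 3 of them with stable calls, and 1 fell (2 without ES replicate 1), with a median of 0.15. The 3 stable rises were those of the membrane proteins CDON, BOC and GAS1, which bind Hedgehog ligands beside the receptor PTCH1. CDON stood at -1.14 and -1.50 in the ES arrays and at 0.51 and 0.48 in the IVDS2 arrays, a rise of 1.81 ± 0.16 (adjusted p = 0.000324). BOC went from -1.28 and -1.61 to 0.34 and 0.03 and GAS1 from -1.25 and -1.38 to 0.26 and 0.41, with rises of 1.62 ± 0.17 and 1.65 ± 0.21. GLI1, the transcription factor that Hedgehog signals switch on, moved the other way. It stood at 1.23 and 1.09 in the ES arrays and at -0.06 and -0.31 in the colonies, a difference of -1.34 ± 0.15 (adjusted p = 0.00103). The targets PTCH1 and HHIP differed by -0.34 and 0.50 and did not pass the test.

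In the Nodal and activin list SMAD3, a signal carrier, was the single called gene of 13, with a rise of 1.21 ± 0.17 and a median of the list of 0.01. The ligand NODAL differed by -0.40 (adjusted p = 0.199) and GDF3 by -0.50. No member was called lower in the fit of all arrays, 1 was called without either IVDS2-C array, and 2 were lower at an unadjusted p under 0.05 in limma. Of the 17 measured insulin and IGF genes 4 rose (2 without IVDS2 replicate 2) and 0 fell (1 without ES replicate 1, and 1 at an unadjusted p under 0.05), with a median of 0.03. The binding protein IGFBP5 went from -1.07 and -1.01 to 0.58 and 0.30, a rise of 1.48 ± 0.12 (adjusted p = 0.000257), and IGF2R, which takes IGF2 to lysosomes, rose by 1.11 ± 0.16. IGFBP2 rose by 0.93 ± 0.16, with an adjusted p of 0.052 without IVDS2 replicate 2. The ligand IGF2 itself differed by -0.05 ± 0.17.

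Of the EGF family 0 of 12 rose (1 without either IVDS2-C array, and 1 at an unadjusted p under 0.05 in limma) and 2 fell, with a median of 0.00. The receptor ERBB2 stood at 0.48 and 0.86 in the ES arrays and at -0.21 and -0.33 in the colonies, a stable difference of -0.94 ± 0.13. Its partner ERBB3 differed by -0.70 ± 0.19 and lost its call when any array but ES replicate 1 was left out. EGFR differed by 1.27 in the other direction and did not pass the test (adjusted p = 0.092). In the PDGF, VEGF and angiopoietin list 3 of 12 rose and 1 fell, with a median of -0.10 and 0 stable calls. KIT, the receptor for stem cell factor, rose by 1.77 ± 0.33 and its ligand KITLG by 1.28 ± 0.33, and without ES replicate 2 no gene was called in either direction (adjusted p = 0.0603 for KIT and 0.165 for KITLG). Without either IVDS2 array 1 gene rose and 0 fell, and 2 fell without ES replicate 1.

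Of 15 measured retinoic acid genes 2 rose and 2 fell, with a median of -0.05. CRABP2, a carrier of retinoic acid into the nucleus, went from -0.20 and -0.51 to 0.77 and 0.99, a stable rise of 1.24 ± 0.19 (adjusted p = 0.00332). CRABP1 rose by 1.76 ± 0.40, and CYP26A1, the enzyme that degrades retinoic acid, stood at 0.46 and 0.33 in the ES arrays and at -1.47 and -1.81 in the colonies, a difference of -2.04 ± 0.45. Neither of these was stable: without either IVDS2 array or ES replicate 2, 0 members fell, without any IVDS2-C, IVDS2-P or IVDS3 array 1 fell, and 1 rose without ES replicate 2 or IVDS2 replicate 1.

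Genes of contact between cells came next. Of the 17 measured Eph receptors and ephrins, membrane proteins through which touching cells repel or hold each other, 7 rose, 6 with stable calls, and the median was 0.49. No member fell with all arrays (1 without ES replicate 2, and 2 at an unadjusted p under 0.05 in limma). Among the receptors, EPHA4 stood at -0.36 and -1.37 in the ES arrays and at 0.92 and 1.04 in the IVDS2 arrays, a rise of 1.85 ± 0.30 (adjusted p = 0.00447). EPHB1 went from -1.42 and -1.88 to -0.16 and 0.39, a rise of 1.76 ± 0.23, and EPHB3 rose by 0.97 ± 0.14. Among the ligands, EFNB2 went from -1.19 and -1.72 to 0.20 and 0.32, a rise of 1.72 ± 0.24 (adjusted p = 0.00236), and EFNA1 and EFNB1 rose by 0.88 ± 0.14 and 0.68 ± 0.11. Receptors and ligands therefore both rose, and the 3 measured B-type ephrins, EFNB3 with 0.57 ± 0.13 included, were all called.

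Of the 23 semaphorins, plexins, slits, netrins and their receptors 8 rose and 3 fell, with a median of 0.29. The stable calls were the rises of the semaphorin receptors PLXNA2, by 1.83 ± 0.26 with probe sets from 0.64 to 3.51, and PLXNA1, by 0.82 ± 0.13, and the fall of NTN4, a netrin of basement membranes. NTN4 stood at 1.03 and 0.89 in the ES arrays and at -0.95 and -0.98 in the colonies, a difference of -1.92 ± 0.19 (adjusted p = 0.000446). SEMA3C rose by 1.80 ± 0.41 and SLIT2 by 1.38 ± 0.25 in the fit of all arrays. The count of rises was 4 without either IVDS2 array and 5 without ES replicate 2, and in each of these cases 1 gene fell.

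Of 16 measured classical cadherins and protocadherins 4 rose and 2 fell, none of them stably, and without IVDS2 replicate 2 no gene was called. Without IVDS2 replicate 1 or ES replicate 2, 1 rose and 1 fell, and 1 fell without ES replicate 1. CDH11, a mesenchymal cadherin, stood at -0.69 and -1.82 in the ES arrays and at 0.72 and 1.24 in the colonies, a rise of 2.23 ± 0.39 (adjusted p = 0.00629, and 0.054 without IVDS2 replicate 2). The protocadherin PCDH8 went from 1.46 and 2.18 to 0.24 and -0.68, a difference of -2.04 ± 0.48. FAT1 rose by 0.41 ± 0.11, with probe sets at -0.05 and 0.88. Of 10 measured connexins and pannexins 2 rose and 0 fell (1 without ES replicate 1, and 1 at an unadjusted p under 0.05 in limma). GJB6, a connexin of surface epithelia, rose by 1.78 ± 0.21 with a stable call, and PANX1 lost its call without ES replicate 2, IVDS2 replicate 2 or either IVDS3 array.

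In the basement membrane list 4 of 14 measured genes rose, 3 with stable calls, and 1 fell, with a median of 0.57. Beside FREM2, the collagen chain COL4A6 went from -0.53 and -0.64 to 0.69 and 0.85, a rise of 1.35 ± 0.17, and the laminin chain LAMB1 from -0.94 and -1.34 to 0.06 and 0.01, a rise of 1.17 ± 0.18. LAMA1 rose by 1.15 ± 0.22. FRAS1, the partner of FREM2 at the basement membrane, differed by -0.63 ± 0.15, the opposite direction, and lost its call without ES replicate 2, IVDS2 replicate 2 or either IVDS3 array. Of 19 heparan sulphate proteoglycans and their enzymes 3 rose and 1 fell, with a median of 0.02, and 1 rose without ES replicate 2 or either IVDS2 array. GPC4, a glypican, stood at 1.87 and 2.30 in the ES arrays and at -0.10 and -0.31 in the colonies, a difference of -2.29 ± 0.20 (adjusted p = 0.000381), whereas GPC3 rose by 0.78 ± 0.19 without a stable call. SULF2, which trims sulphate from these chains, rose by 1.07 ± 0.17. A second gene fell without ES replicate 1. In the hyaluronan and proteoglycan list, median -0.08, HAPLN1 was the single rise of 17 (2 without either IVDS2-C array), while the related link protein HAPLN3 differed by -1.11 ± 0.20 and lost its call without ES replicate 2, and 3 genes fell without ES replicate 1. HAPLN1 joins hyaluronan to proteoglycans, and HAS2, the synthase of hyaluronan, differed by 0.87 (adjusted p = 0.146).

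**Figure D3:**
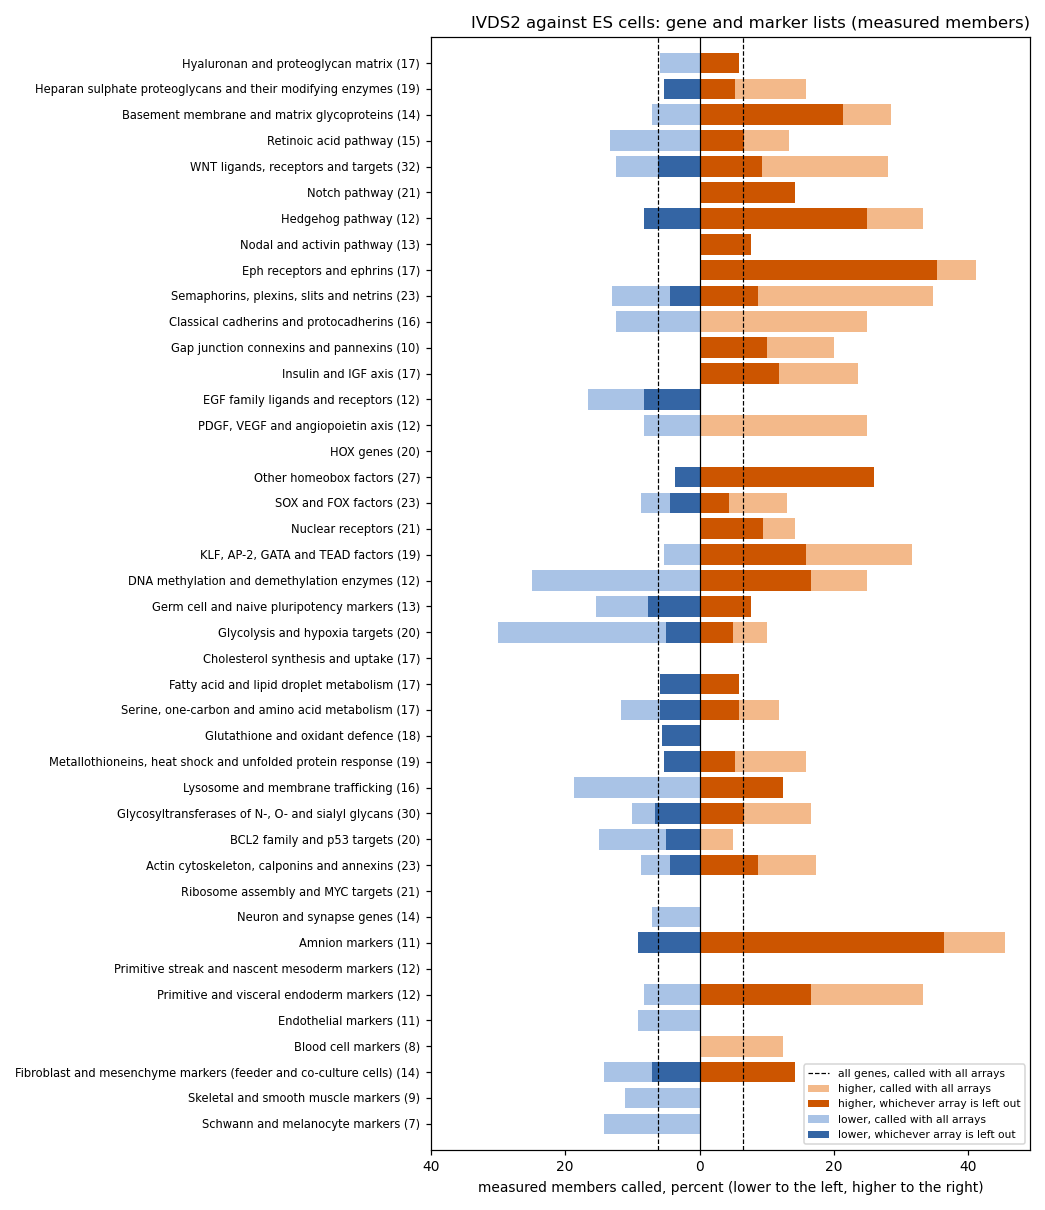
Bars give the percent of measured members of each list described here called higher (right, orange) or lower (left, blue), with the darker part for stable calls, the number of measured members in brackets and dashed lines at the 6.5% and 6.23% of all genes called higher and lower. The Eph, basement membrane, Hedgehog, homeobox and amnion lists have the longer dark bars to the right, and the HOX, cholesterol, ribosome and primitive streak lists have no bar.

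Transcription factors were counted by family. Of the 20 measured HOX genes, which give cells their position along the body axis, 0 were called in limma with all arrays or without any 1 array. At an unadjusted p under 0.05 there were also 0, and the differences ran from -0.33 to 0.19 with a median of -0.13. Of the 27 other homeobox genes 7 rose, all with stable calls, and 1 fell (3 without ES replicate 1), with a median of 0.04. DLX3, a regulator of placenta and epidermis, stood at -1.47 and -1.62 in the ES arrays and at 1.55 and 0.73 in the colonies, a rise of 2.68 ± 0.33 (adjusted p = 0.00124). DLX5 went from -2.14 and -1.70 to 1.00 and 0.21, a rise of 2.53 ± 0.30, and ISL1 from -2.06 and -2.22 to -0.04 and 0.04, a rise of 2.14 ± 0.25. The HOX cofactors MEIS1 and MEIS2 rose by 1.86 ± 0.30 and 2.03 ± 0.34, and the Iroquois genes IRX1 and IRX3 by 1.51 ± 0.23 and 1.48 ± 0.17. HESX1, a repressor of the early forebrain and pituitary that ES cells also express, went from 3.09 and 1.54 to -0.15 and -0.07, a difference of -2.42 ± 0.39 (adjusted p = 0.00441). CDX2, known from trophectoderm and gut, differed by -0.09 (adjusted p = 0.711).

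Of the 19 KLF, AP-2, GATA, TEAD and related factors 6 rose and 1 fell, with a median of 0.18. The stable rises were those of KLF5, TFAP2C and GRHL1, factors known from trophectoderm or surface epithelium. KLF5 stood at -3.14 and -2.64 in the ES arrays and at 0.51 and -0.51 in the IVDS2 arrays, a rise of 2.89 ± 0.39 (adjusted p = 0.00193). TFAP2C went from -1.41 and -1.08 to 1.03 and 0.48, a rise of 2.00 ± 0.19, and GRHL1 rose by 1.59 ± 0.20. GATA2 rose by 1.01 ± 0.22 and KLF4 differed by -0.97 ± 0.27, both without a stable call, and the count of rises was 3 without ES replicate 1 or IVDS2 replicate 1. KLF4 lost its call without ES replicate 1, ES replicate 2, IVDS2 replicate 2 or either IVDS3 array.

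Of 23 measured SOX and FOX factors 3 rose and 2 fell, with a median of -0.01. FOXC1, a forkhead factor of mesoderm and neural crest, went from -2.50 and -1.93 to 0.15 and 0.06, a rise of 2.32 ± 0.28 (adjusted p = 0.00118) that both of its probe sets showed. FOXO1 differed by -0.85 ± 0.14, also with a stable call. The endoderm factors SOX17 and FOXA2 differed by -0.27 and -0.12 and FOXA1 by 0.76, and none passed the test. The count of rises was 1 without ES replicate 2 or IVDS2 replicate 1, and the count of falls was 5 without ES replicate 1 and 1 without ES replicate 2 or IVDS2 replicate 2. Of 21 nuclear receptors 3 rose, NR2F1 and NR2F2 among them. The third was NR3C1, the glucocorticoid receptor, with a rise of 1.18 ± 0.13 (adjusted p = 0.000795) over 3 probe sets from 0.37 to 1.88. None fell with all arrays (4 without ES replicate 1, and 1 at an unadjusted p under 0.05 in limma), and the liver and bile acid receptor NR1H4 differed by -0.61 (adjusted p = 0.135).

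Of 12 measured enzymes of DNA methylation and demethylation 3 rose and 3 fell, with a median of -0.43. TET2, which oxidises methylated cytosine, went from -1.03 and -0.99 to -0.29 and -0.19, a rise of 0.77 ± 0.10 (adjusted p = 0.00154), and GADD45A rose by 1.08 ± 0.12, with probe sets from 0.34 to 2.53. The falls of DNMT3A (-0.50 ± 0.11), DNMT3L (-0.64 ± 0.13) and MBD4 (-0.62 ± 0.17) were not stable: 0 genes fell without IVDS2 replicate 1 and 1 without ES replicate 2 or IVDS2 replicate 2. TET1 differed by -0.74 (adjusted p = 0.172). Among 13 germ cell and naive pluripotency markers, median -0.06, PRDM14, a regulator of pluripotency and germ cells, stood at 1.06 and 1.40 in the ES arrays and at 0.14 and -0.10 in the colonies, a difference of -1.21 ± 0.16 (adjusted p = 0.00159). Its relative PRDM1 rose by 1.62 ± 0.23, with probe sets from 0.06 to 3.07. FGF4 fell without a stable call (-1.83 ± 0.47), and its loss without either IVDS2, IVDS2-P or IVDS3 array left 1 fall. A second gene rose without IVDS2 replicate 1.

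Among metabolic genes, of 20 glycolysis and hypoxia genes 6 fell and 2 rose, with a median of -0.29, but the falls numbered 1 without IVDS2 replicate 1, 2 without ES replicate 2 or IVDS2 replicate 2, and 3 without either IVDS3 array. The stable calls were those of CA12, a carbonic anhydrase, with -1.38 ± 0.19, and of PFKFB3, which makes the activator of phosphofructokinase, with 1.36 ± 0.23. PFKFB3 was the single rise without ES replicate 1 or IVDS2 replicate 2. ALDOC differed by -0.74 ± 0.15 and GAPDH by -0.42 ± 0.12, so the other falls were small. Of 17 cholesterol genes 0 were called with all arrays or without any 1 array, and in limma 1 was higher and 0 lower at an unadjusted p under 0.05, with differences from -0.44 to 0.36 (median 0.01). Of 17 fatty acid genes, median -0.16, CD36 rose, and FABP3, a fatty acid carrier of muscle, went from 1.69 and 1.78 to -0.19 and 0.06, a difference of -1.80 ± 0.23 (adjusted p = 0.0016). Here 4 genes fell without ES replicate 1 and 2 rose without either IVDS2-C array.

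Of 17 genes of serine, one-carbon and amino acid metabolism 2 rose and 2 fell, with a median of 0.07. TDH, threonine dehydrogenase, which feeds one-carbon metabolism in mouse ES cells, stood at -0.46 and -0.72 in the ES arrays and at 2.12 and 1.43 in the colonies, a rise of 2.37 ± 0.22 (adjusted p = 0.000414). SHMT1, which passes the carbon of serine to folate, went from 1.22 and 1.01 to -0.07 and 0.07, a difference of -1.11 ± 0.14. The other calls were lost, of GLUL without IVDS2 replicate 2 and of MTHFD1 without any 1 of the ES, IVDS2 or IVDS2-P arrays. Of 18 glutathione genes 0 rose (also 0 at an unadjusted p under 0.05 in limma) and 1 fell (2 without ES replicate 2), MGST2 with -0.99 ± 0.16. The median was -0.15.

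In the list of metallothioneins, heat shock proteins and the unfolded protein response 3 of 19 rose (1 without ES replicate 2 or IVDS2 replicate 2) and 1 fell, with a median of 0.18. HSPA4L, a cochaperone, stood at 0.18 and -0.01 in the ES arrays and at -1.19 and -1.08 in the colonies, a difference of -1.22 ± 0.11 (adjusted p = 0.000404). MT1E rose by 2.87 ± 0.62, with ES arrays at -1.92 and -3.81 and no stable call. Of the 3 rises 1 was stable, a gene other than MT1E, and the largest difference in the list was 4.33. Of 16 lysosomal genes 2 rose and 3 fell, with a median of -0.04. NPC1, which lets cholesterol out of lysosomes, went from -0.98 and -0.85 to 0.46 and 0.60, a rise of 1.45 ± 0.19, and the membrane protein LAMP2 rose by 1.29 ± 0.18, both stably. NPC2, the luminal partner of NPC1, differed by -0.68 ± 0.15. None of the 3 falls was stable: 0 were called without ES replicate 2 and 1 without IVDS2 replicate 2 or any IVDS2-C or IVDS2-P array.

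Of 30 glycosyltransferases 5 rose (3 without IVDS2 replicate 2) and 3 fell, with a median of 0.08. GALNT10, which starts O-linked chains, rose by 1.64 ± 0.28 and FUT8, which adds the core fucose of N-linked chains, by 1.01 ± 0.17. GCNT1, which branches O-linked chains, stood at 1.64 and 1.72 in the ES arrays and at 0.12 and -0.62 in the colonies, a difference of -1.93 ± 0.21 (adjusted p = 0.000711). UGT8, which makes galactosylceramide, differed by -1.90 ± 0.29. In the BCL2 and p53 list 3 of 20 fell and 1 rose, with a median of -0.29. PMAIP1, the death promoter NOXA, went from 1.00 and 1.99 to -0.87 and -0.71, a difference of -2.29 ± 0.31 (adjusted p = 0.00186). The BCL2 relative BCL2L14, named by size and not counted in this list, differed by -2.15 ± 0.36. FAS, the death receptor, differed by -1.03 ± 0.20 and lost its call without ES replicate 2. The falls numbered 5 without ES replicate 1 and 1 without ES replicate 2 or either IVDS2 array, and 0 rose without ES replicate 2 or IVDS2 replicate 2.

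Of 23 actin cytoskeleton genes 4 rose (2 without IVDS2 replicate 2) and 2 fell (1 without ES replicate 2 or IVDS2 replicate 1), with a median of 0.26. ANKRD1, a target of YAP in many cells, stood at -1.96 and -1.61 in the ES arrays and at 0.36 and 0.14 in the colonies, a rise of 2.03 ± 0.27 (adjusted p = 0.00176). The YAP targets CCN1 and CCN2 differed by -0.62 and -0.02 and did not pass the test. Tropomyosin TPM2 rose by 1.31 ± 0.20, as a mean of 7 probe sets from -0.34 to 4.71. CAV1, the coat protein of caveolae, went from 2.09 and 1.17 to -0.28 and 0.01, a difference of -1.77 ± 0.27.

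Of 21 genes of ribosome assembly and MYC targets 0 were called, with a median of -0.18, and in limma 3 were higher and 4 lower at an unadjusted p under 0.05. Without ES replicate 1, 2 rose and 1 fell. A single gene fell without ES replicate 2 or IVDS2 replicate 1 and a single gene rose without either IVDS2-P array. MYC differed by -0.65 and MYCN by -0.41. Of 14 neuron and synapse genes, median 0.16, 1 fell and 0 rose (2 at an unadjusted p under 0.05). SYT1, a calcium sensor of synaptic vesicles, differed by -1.53 ± 0.27. Without IVDS2 replicate 2 it was not called, and 1 gene rose.

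Markers of cell types that the colonies could hold were counted in the same way. Of 11 amnion markers 5 rose, 4 with stable calls, and 1 fell, with a median of 0.61, and 4 rose without ES replicate 2 or IVDS2 replicate 2. Beside ISL1, WNT6 and IGFBP5, already described, GABRP, a subunit of the GABA-A receptor, rose, and HAND1 rose by 1.33 ± 0.27 without a stable call. The fall was that of CLDN10, and VTCN1 and ITGB6 differed by -0.74 and 0.11 and did not pass the test. The mean of the list was -0.63 and -0.69 in the ES arrays, 0.14 and 0.07 in the IVDS2 arrays, 0.83 and 1.05 in the IVDS2-C arrays and -0.81 and -0.65 in the IVDS2-P arrays. In the IVDS3 arrays it was 0.85 and 0.84, so high values were not confined to the centre at the second stage. The undivided colonies thus stood between the centre and the periphery, and the values of the periphery overlapped those of the ES arrays. Several of these genes also act in other tissues, so the list does not by itself name a cell type.

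Of 12 primitive streak and nascent mesoderm markers 0 were called (2 fell without ES replicate 1, and 1 without either IVDS2-C array), and in limma 0 were higher and 3 lower at an unadjusted p under 0.05. The median was -0.15. TBXT, the brachyury gene, differed by -0.22, EOMES by -0.44 and MIXL1 by -0.06, and the smallest adjusted p was 0.0697. Of 12 primitive and visceral endoderm markers 4 rose and 1 fell, with a median of -0.11. The rises were those of the matrix chains LAMA1 and LAMB1, of the uptake receptor LRP2, by 2.16 ± 0.38 without a stable call, and of its adaptor DAB2. DAB2 stood at -1.97 and -2.80 in the ES arrays and at 0.02 and 0.18 in the colonies, a rise of 2.49 ± 0.26 (adjusted p = 0.000628) with 5 probe sets from 0.69 to 3.06. The defining factors GATA4, SOX7, SOX17 and FOXA2 differed by -0.30 to -0.10, and none passed the test. The fall was RBP4 (-0.38 ± 0.11), which was called only with all arrays or without ES replicate 1.

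Of 14 fibroblast and mesenchyme markers, which the feeders and the co-cultured cells could bring, 2 rose and 2 fell, with a median of -0.02. COL1A2 rose by 1.34 ± 0.16 and COL5A2 by 1.66 ± 0.15, the latter with probe sets from -0.12 to 4.02. THY1 went from 1.17 and 1.26 to -0.25 and 0.02, a difference of -1.33 ± 0.14 (adjusted p = 0.000598). TWIST1 differed by -1.45 ± 0.35 and lost its call without ES replicate 2 or either IVDS2 array. COL1A1, COL3A1, LUM and DCN differed by -0.63, -0.02, 0.26 and 0.22, and none passed the test. The mean of the list was -0.22 to -0.19 in the ES arrays, -0.21 to -0.11 in the IVDS2 arrays and 1.16 to 1.40 in the IVDS3 arrays. Members that rose and members that fell offset each other in this mean, and 4 of the 14 were called, beside 12.7% of all genes. Calls in the remaining marker lists were single genes without stable calls. Of 11 endothelial markers TEK fell (3 genes without ES replicate 1, 0 without ES replicate 2 or either IVDS2 array), of 8 blood markers LYN rose (0 without either ES array, IVDS2 replicate 2 or either IVDS3 array), of 9 muscle markers CNN1 fell (2 without ES replicate 1, 0 without ES replicate 2 or IVDS2 replicate 1, and 1 rise without either IVDS3 array), and of 7 Schwann and melanocyte markers ERBB3 fell. Their medians were -0.19, -0.07, -0.20 and 0.02.

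The values at the third stage stand beside these differences, taken from the same fit as IVDS3 minus IVDS2, in which 39.7% of genes were called. This contrast shares the IVDS2 arrays with the one above. Some of the named genes went further in the same direction. KLF5 rose by another 3.17 ± 0.39 to 3.16 and 3.17 in the IVDS3 arrays, MUC15 by 2.86 ± 0.35 and CD36 by 1.78 ± 0.20. Other rises were partly lost: EDDM3A differed by -2.30 ± 0.33 and FREM2 by -1.73 ± 0.34 between the third and the second stage. CHMP4C, WLS and KANK4 differed by -0.35 ± 0.26, -0.03 ± 0.43 and 0.56 ± 0.28, and none passed the test.

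In 6 of the genes named by size the mean of the IVDS3 arrays lay on the other side of the ES mean from that of the IVDS2 arrays. A call for IVDS3 minus IVDS2 with all arrays was also part of how these 6 were chosen. The p-values of their differences between the stages are therefore no separate support. QPCT, which forms pyroglutamate at the start of secreted peptides, stood at 0.53 and 0.43 in the ES arrays, fell to -2.16 and -1.88 at IVDS2 and stood at 2.66 and 2.63 at IVDS3, a difference of 4.67 ± 0.18 between the stages (adjusted p = 5.78e-07). MCUB, an inhibitory subunit of the mitochondrial calcium channel, went from 1.13 and 1.10 to -0.87 and -1.42 and then to 2.43 and 2.50. SELENOP, a selenium carrier that the liver secretes, went from 0.71 and 0.98 to -0.71 and -1.84 and then to 2.03 and 1.63, a difference of 3.11 ± 0.35 between the stages (adjusted p = 0.000165). For these 3 genes both IVDS3 arrays were above both ES arrays.

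In the other 3 the IVDS3 arrays overlapped the ES arrays, so the difference between the stages was a return to about the starting value. BCL11A, a zinc finger repressor known from blood cells and neurons, stood at 1.37 and 1.82 in the ES arrays, -0.81 and -0.83 at IVDS2 and 2.03 and 1.73 at IVDS3, a difference of 2.70 ± 0.24 between the stages (adjusted p = 4.72e-05). GNAO1 went from 0.95 and 1.45 to -0.71 and -1.59 and back to 1.85 and 1.10. CCKBR rose from -1.04 and -0.43 to 2.45 and 2.70 and stood at -0.89 and -1.21 at IVDS3, a difference of -3.63 ± 0.42 (adjusted p = 0.000199). Each of the 6 differences between the stages was also called whichever array was left out. Those fits reuse the arrays by which the 6 genes were chosen, so they are no separate support. For QPCT the undivided colonies were lower than both dissected groups, with IVDS2-C at -0.22 and 0.22 and IVDS2-P at -1.13 and -0.75 (adjusted p = 0.00236 and 0.0289 in limma for the differences from IVDS2). For CCKBR they were above both, with IVDS2-C at 1.58 and 0.32 and IVDS2-P at -0.32 and 0.60 (adjusted p = 0.0571 and 0.0317). As for QPCT, the IVDS2 means of MCUB, BCL11A and GNAO1 were below those of both parts. Among these differences only that of MCUB from the centre was called in limma (adjusted p = 0.0494). The IVDS2 arrays compared here with the parts are those by which the genes were chosen. The p-values of the differences from IVDS2-C and IVDS2-P are therefore no separate support either.

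**Figure D4:**
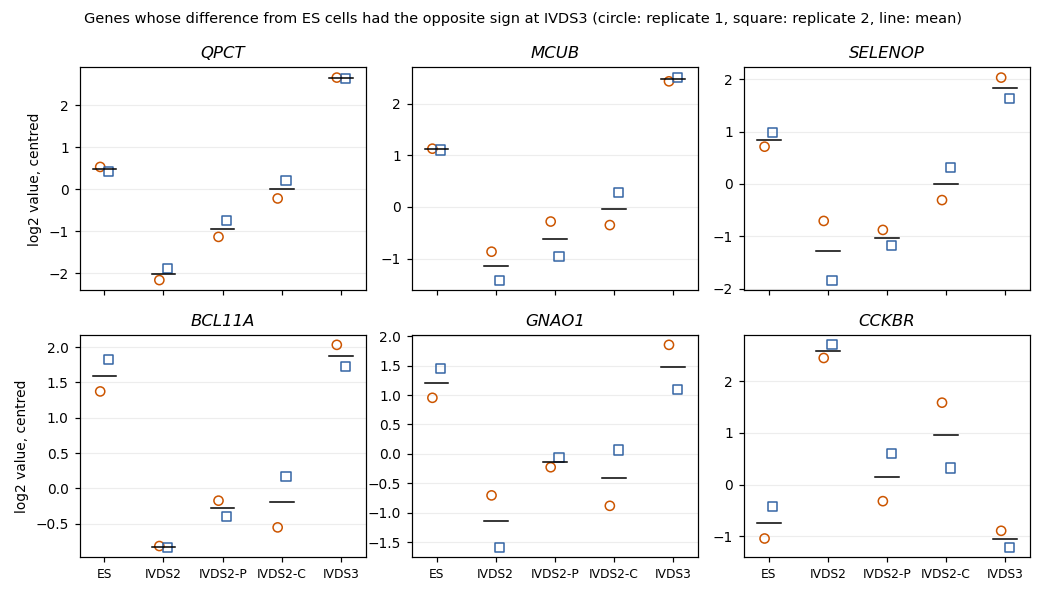
Each panel plots 1 gene's centred log2 value (vertical axis) by group, with a circle for replicate 1, a square for replicate 2 and a line at their mean. The IVDS2 arrays are the lowest group for QPCT, at -2.16 and -1.88, and the highest for CCKBR, at 2.45 and 2.70, and the IVDS3 arrays of QPCT reach 2.66 and 2.63.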

How the data were processed

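Total RNA of 10 samples was labelled and hybridised to Affymetrix rhesus arrays, per the labels' protocols. The authors deposited log2 values made with RMA, per the submitters' processing notes, which give no version, and the values show a median of 0 over the 10 arrays for every probe set. The log base is inferred from the largest range, 9.51. The 84 control probe sets were left out. Of 44210 tested probe sets, 22802 belong to 1 gene in the platform annotation, 316 to several and 21092 to none, and 7438 of the 13191 genes have 1 probe set. Here limma 3.58.1 (R 4.3.3) fitted a term per group over the 10 arrays, moderated by eBayes (5 residual and 3.94 prior degrees of freedom), Benjamini-Hochberg adjustment and calls at an adjusted p under 0.05. The fit was tested on simulated data.

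Genes named are the 25 largest stable rises and falls without locus numbers and without genes known from an earlier description of these arrays, and up to 4 called members of each list and direction, stable ones first. Other members are given as values. The 35 gene lists and 8 marker lists hold 968 genes, 697 of them measured, 7 matched by hand to a current symbol. The members and lists were chosen with earlier results of these data known. Lists share some genes, and 1 list is not reported here. Alternatives were centring each array, fitting the 4 arrays alone, a replicate block, robust moderation, other summaries of probe sets and leaving out each array.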

Additional observations from a re-analysis of the deposited data

Results flagged for a closer look

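In 6 of the genes named by size the IVDS3 mean lay on the other side of the ES mean from the IVDS2 mean, and IVDS3 minus IVDS2 was called in the fit over all arrays, which shares the IVDS2 arrays with the main comparison. Other named genes, such as EDDM3A and FREM2, turned back between the stages without crossing the ES mean. For the 6 genes the differences between the stages were 4.67 for QPCT, 3.61 for MCUB, 3.11 for SELENOP, 2.70 for BCL11A, 2.62 for GNAO1 and -3.63 for CCKBR in log2 units. Groups of 2 arrays are too small to look for an array far from its group.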

How the results depend on the processing

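Fitting only the 4 arrays compared called 982 genes (554 higher, 428 lower) and 2115 probe sets (1258 higher, 857 lower). Over the 10 fits without 1 array, genes called ran from 768 to 2150 (higher 457 to 1096, lower 311 to 1054) and probe sets from 1757 to 5648 (higher 1114 to 3327, lower 643 to 2321). These 10 fits were not all distinct, since leaving out either array of IVDS2-C, IVDS2-P or IVDS3 gave the same fit for that group. Centring each array (1641 genes), robust moderation (1678), the most variable probe set (1696) and the median of probe sets (1606) kept the counts within 1.5 times. The correlation of replicate differences was -0.119 for ES and IVDS2 and up to 0.254 between other groups, so the numbers were not taken to pair the arrays, and the replicate block called 1799 genes. With only the 4 arrays, a replicate block, chosen after seeing the data, called 887 genes (512 higher, 375 lower) and 1877 probe sets (1166 higher, 711 lower), and crossed pairing called 2047 genes. FAT1 was at -0.0487 with its most variable probe set. Of 183 named genes, 37 lost their call with only the 4 arrays and 55 without IVDS2 replicate 2. A filter on low values was not run, since centred values give no level. The causes were not tested.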
